A study of Oryctolagus cuniculus with 12 samples.

Results

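The genes described here are 10 components of transforming growth factor-β (TGF-β) signalling measured by RNA sequencing in rabbit conjunctiva after glaucoma filtration surgery. They are the ligands TGFB1, TGFB2, TGFB3 and INHBA, the matrix protein LTBP2, the receptors TGFBR1 and TGFBR2, the inhibitors SMAD7 and SKIL, and the induced matrix protein TGFBI. They were taken by symbol from a list drawn up with earlier results of these data known. All 10 were found among the 20566 genes of the table, and all 10 passed the filter on low counts, as did 14835 genes in all.

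The animals were female Japanese white rabbits. In the operated groups the right eye underwent trabeculectomy, an operation that opens a drain for aqueous humor under the conjunctiva and raises a filtering bleb, with mitomycin C. An age of 12 to 14 weeks, betamethasone injected into the conjunctiva and an erythromycin and colistin ointment at the end come from methods written for a later use of these libraries, and are assumed to hold for these animals. Conjunctiva with the bleb was taken 3 hours (TL-3h), 3 days (TL-3d) or 14 days (TL-14d) after surgery, and the control was conjunctiva of the left eye, which was not operated on, with 3 libraries in each of the 4 groups and 12 in all. The wound, the drug treatment and the drained aqueous humor all differ between operated and control eyes and cannot be told apart here. When the control eyes were sampled, and which animals they came from, is not stated, so the p-values measure only the spread between these libraries, which may be partly technical.

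TGF-β ligands are secreted in a latent form and held in the extracellular matrix until they are released. Active ligand brings together the type II receptor TGFBR2 and the type I receptor TGFBR1, which phosphorylates SMAD2 and SMAD3. These enter the nucleus with SMAD4 and alter transcription, and SMAD7 and SKIL act as feedback inhibitors. In the conjunctiva the pathway is best known for driving fibroblasts to scar the bleb after filtration surgery.

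The libraries held 27111276 to 38591374 estimated counts. Levels of a gene are given as CPM, the read count corrected for library size, with scaling by the trimmed mean of M-values (TMM), and 3 values in a row are replicates 1, 2 and 3 of a group. Changes are log2 fold changes with their standard error (SE) from edgeR's quasi-likelihood test, with q the p-value adjusted by Benjamini-Hochberg over all 14835 genes and q ≤ 0.05 as the threshold. Markers of conjunctival epithelium were present in every library, with a summed level of 5655 to 14761 CPM over 10 of 10 genes. TL-14d replicate 1 stood apart from the other TL-14d libraries and was closer to the controls. Over log2 CPM of 13253 genes its Pearson correlation was 0.97, 0.962 and 0.925 with control replicates 1, 2 and 3, against 0.839 and 0.889 with TL-14d replicates 2 and 3, as a description across genes. Of the 10 genes it lay within the control range for 5, below it for 4 and above it for 1, whereas replicates 2 and 3 each lay above that range for 8 genes, within it for 1 and below it for 1. Results for TL-14d are therefore given with and without this library. Since it was singled out by levels measured in it, these 10 genes included, the values without it are a description and support no result. In these bulk libraries fewer cells of a type and less RNA per cell cannot be told apart.

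At 3 hours 4 of the 10 genes passed the threshold. INHBA, SMAD7 and SKIL were higher than in the control, and TGFBI was lower. Over all genes tested 45.4% passed at this time, 23.2% higher and 22.2% lower, so the share of these genes was near the background. At 3 days 2 of the 10 passed, INHBA and TGFB1, both higher, against 17.6% of all genes (10.6% higher). At 14 days none of the 10 and none of all genes (0%) passed in edgeR. At an unadjusted p under 0.05 there were 6 of the 10 and 1538 of all genes. DESeq2 called 2 of the 10, INHBA and LTBP2, with 2.49% of genes past the threshold, a share taken over the genes to which DESeq2 gave an adjusted p-value. Testing the 3 times together, 4 of the 10 passed, namely INHBA (q = 0.0208), LTBP2 (q = 0.0363), SKIL (q = 0.00807) and TGFBI (q = 0.0362), beside 52.4% of all genes. Of these calls SKIL was kept whichever library was left out, and it was the single one left without control replicate 1 or 2. LTBP2 and TGFBI were also lost without TL-3h replicate 1, 2 or 3 or TL-3d replicate 2, TGFBI without TL-3d replicate 1 or 3, LTBP2 without TL-14d replicate 2 or 3 and in limma-trend and the replicate block, and INHBA without control replicate 3. The count was 8 without TL-14d replicate 1. The share of all genes past the threshold in this joint test ranged over 41.2% to 56.5% when each library was left out. The comparisons with control all use the same 3 control libraries.

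**Figure D1:**
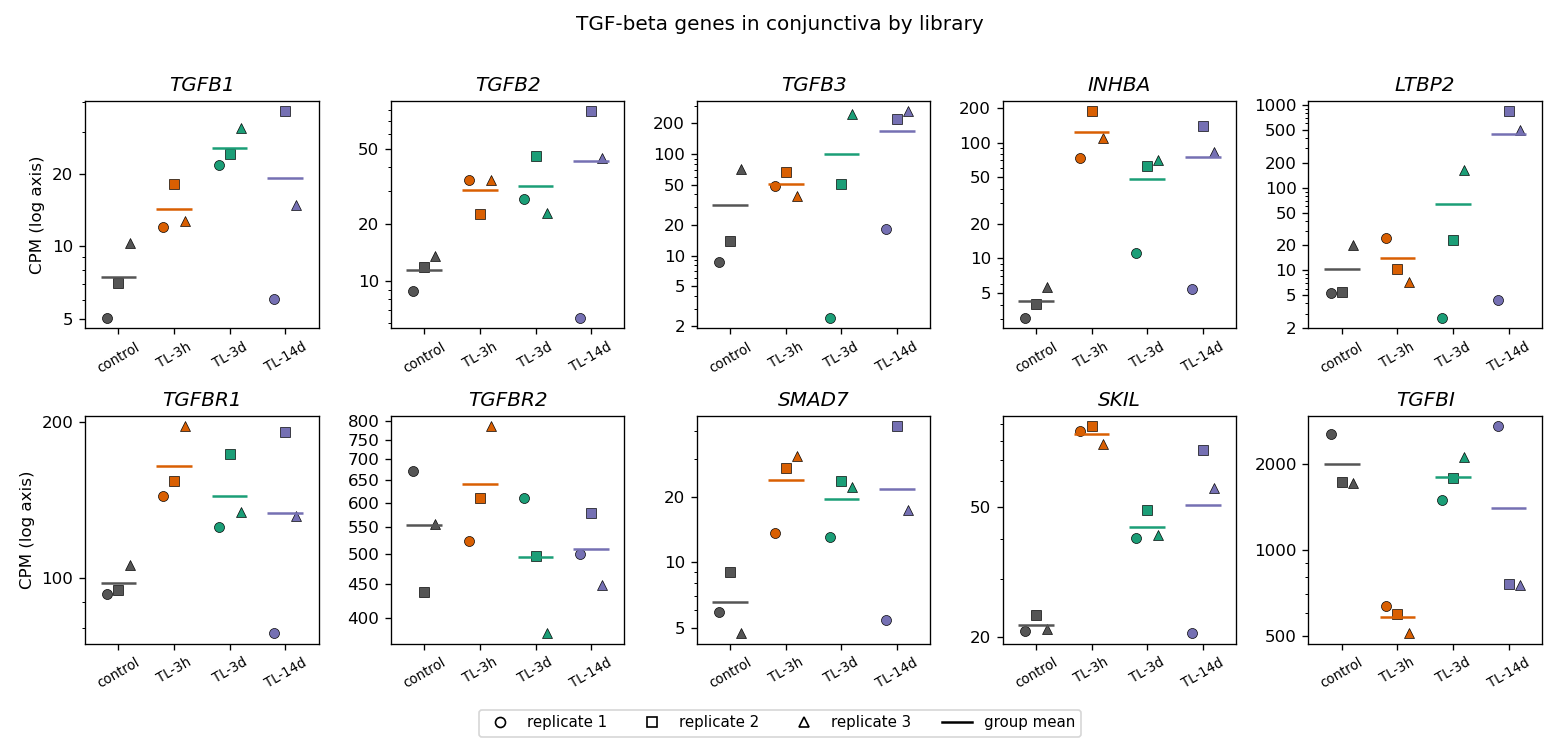
Level of each of the 10 genes (CPM, log axis) in the 12 libraries by group, with 1 marker shape for each replicate number and a line at the group mean. The 3 TL-3h libraries sit above all control libraries for INHBA (74.1 to 187 against 3.06 to 5.67 CPM) and SKIL, and below them for TGFBI, while TL-14d replicate 1 (circle) sits near the controls.

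INHBA, the beta A subunit that forms activin A, showed the largest rise of the 10 genes at 3 hours. Its level was 3.06, 4.03 and 5.67 CPM in the control, 74.1, 187 and 109 CPM at TL-3h, 11.1, 62.2 and 70.7 CPM at TL-3d, and 5.41, 138 and 82.2 CPM at TL-14d. Every TL-3h and TL-3d library lay above every control library, and at TL-14d replicates 2 and 3 did so while replicate 1 did not. The rise was 29.0-fold at 3 hours (log2 fold change 4.86, SE 1.08, q = 0.00467) and 11.3-fold at 3 days (3.50, SE 1.02, q = 0.0419). At 14 days the estimate was 4.14 (SE 1.05, q = 0.346), and without TL-14d replicate 1 it was 4.69 (SE 0.73, q = 0.0137). The rise at 3 hours passed in each of the 19 alternative settings tried. The call at 3 days passed in 8 of the 19 and was lost with limma-trend and when any library other than TL-14d replicates 1 and 2 was left out (highest q = 0.127).

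TGFB1, the isoform released by platelets and leukocytes, was higher at 3 days. The control libraries held 5.03, 7.05 and 10.4 CPM, TL-3h 12.1, 18.2 and 12.7 CPM, TL-3d 21.8, 24.2 and 31.2 CPM, and TL-14d 6.05, 36.6 and 14.9 CPM. The TL-3h and TL-3d libraries all exceeded the controls, and the TL-3d libraries also exceeded those of TL-3h. The change was 3.44-fold at 3 days (log2 fold change 1.78, SE 0.54, q = 0.0474), whereas 0.94 (SE 0.53, q = 0.18) at 3 hours and 1.36 (SE 0.54, q = 0.433) at 14 days did not pass. Like that of INHBA, the call at 3 days passed in 8 of the 19 alternatives and was lost without a filter on low counts and when any library other than TL-14d replicates 1 and 2 was left out (highest q = 0.144). Summed monocyte and macrophage markers (9 of 9 genes found, none at 0 in any library) were 82.5 to 634 CPM in the control, 686 to 1080 CPM at TL-3h, 1408 to 2237 CPM at TL-3d and 103 to 510 CPM at TL-14d, and 6 of the 9 were higher at 3 days. Their part in the TGFB1 result was not tested. The annotated model of TGFB1 is short, at 853 bases on an unplaced sequence, and 91.7% of its 12 counts were fractions.

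TGFB2, the isoform abundant in the eye and aqueous humor, did not pass at any time with all libraries. Its level was 8.88, 11.9 and 13.5 CPM in the control, 34.1, 22.5 and 34.1 CPM at TL-3h, 26.9, 45.7 and 22.9 CPM at TL-3d, and 6.39, 78.8 and 44.4 CPM at TL-14d. All TL-3h and TL-3d libraries lay above the controls. The log2 fold changes were 1.41 (SE 0.66, q = 0.110) at 3 hours, 1.48 (SE 0.66, q = 0.137) at 3 days and 1.92 (SE 0.67, q = 0.405) at 14 days. Without TL-14d replicate 1 the values were 1.40 (q = 0.00671), 1.48 (q = 0.0129) and 2.43 (q = 0.0121), all past the threshold. The spread estimated for each gene is shared by all groups, and the SE at 3 hours fell from 0.66 to 0.33 without that library.

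TGFB3 varied widely between replicates, and none of its differences passed. It measured 8.62, 13.8 and 71.5 CPM in the control, 48.1, 66.9 and 38.2 CPM at TL-3h, 2.42, 50.5 and 249 CPM at TL-3d, and 18.4, 221 and 265 CPM at TL-14d. Each operated group overlapped the control range. Its log2 fold changes were 0.71 (SE 1.33, q = 0.700), 1.68 (SE 1.35, q = 0.394) and 2.43 (SE 1.39, q = 0.575) at TL-3h, TL-3d and TL-14d, and the last was 2.96 (q = 0.247) without TL-14d replicate 1. Within the control and TL-3d groups its order followed the summed fibroblast markers (8 of 8 genes, none at 0), which were 12302, 35743 and 76958 CPM in the control and 1360, 11793 and 65107 CPM at TL-3d. These markers include COL1A1, COL1A2 and COL3A1, which are also listed below among other targets of the pathway, so the sums do not measure cell number alone. The sums were 105662, 126585 and 107880 CPM at TL-3h and 26994, 11065 and 57355 CPM at TL-14d, and TGFB3 did not follow their order in these groups. The part of these cells in the TGFB3 values was not tested.

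**Figure D2:**
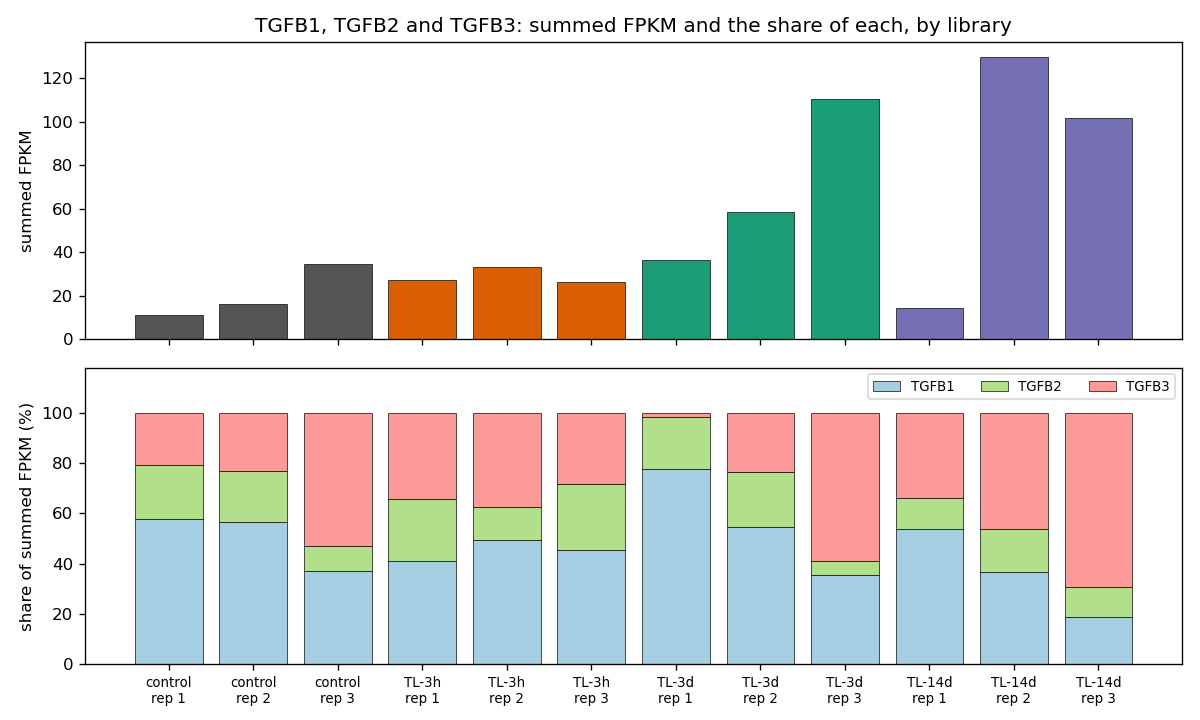
Summed FPKM of TGFB1, TGFB2 and TGFB3 in each library (top) and the share of each isoform in that sum in percent (bottom). The sums carry no TMM scaling, so they are not on the scale used for the tests. TGFB3 ranges from 1.80% of the sum in TL-3d replicate 1 to 69.3% in TL-14d replicate 3.

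The makeup of the TGF-β isoforms was compared within each library on the FPKM scale, which corrects for gene length as well as library size. TGFB1 made up 57.8%, 56.7% and 37% of the summed FPKM of the 3 isoforms in the control, 41.2%, 49.5% and 45.6% at TL-3h, 77.9%, 54.6% and 35.6% at TL-3d, and 54.0%, 36.9% and 18.8% at TL-14d. TGFB2 was the smallest or middle share throughout, at 5.51% to 25.9%. TGFB3 was the largest share in control replicate 3, TL-3d replicate 3 and TL-14d replicates 2 and 3, and TGFB1 was the largest in the other libraries. The TGFB1 share depends on its short annotated model. Each operated group overlapped the control in all 3 shares, and no test of the shares was run.

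LTBP2, a fibrillin-binding protein of the matrix in the family of latent TGF-β binding proteins, reached its highest levels at 14 days in replicates 2 and 3. The values were 5.29, 5.43 and 20.4 CPM in the control, 24.3, 10.5 and 7.32 CPM at TL-3h, 2.65, 23.0 and 163 CPM at TL-3d, and 4.37, 848 and 499 CPM at TL-14d. Both high TL-14d libraries exceeded every library of the other groups, and replicate 1 lay below the lowest control. The log2 fold change was 0.44 (SE 1.51, q = 0.840) at 3 hours, 2.6 (SE 1.58, q = 0.260) at 3 days and 5.44 (SE 1.80, q = 0.388) at 14 days. The value at 3 days rested on TL-3d replicate 3 and was 0.30 without it. That library also held 389 CPM of summed skeletal muscle markers (5 of 8 genes found) against 2.17 and 3.26 CPM in TL-3d replicates 1 and 2, and their part was not tested. Without TL-14d replicate 1 the last value was 6.02 (SE 1.46, q = 0.0509), just outside the threshold. LTBP2 took the order of the summed fibroblast markers within control and TL-3d but not within TL-3h or TL-14d, where the library with the lowest sum of its group (replicate 1 and replicate 2) had the highest LTBP2, and the part of these cells was not tested.

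TGFBR1, the signalling type I receptor, lay above the control in every TL-3h and TL-3d library. Its level was 93.0, 94.8 and 106 CPM in the control, 144, 154 and 196 CPM at TL-3h, 125, 173 and 134 CPM at TL-3d, and 78.2, 191 and 132 CPM at TL-14d. At 3 hours the log2 fold change of 0.75 (SE 0.28, q = 0.0501) fell just outside the threshold. It was 0.56 (SE 0.28, q = 0.176) at 3 days and 0.45 (SE 0.28, q = 0.597) at 14 days, and without TL-14d replicate 1 the value at 3 hours passed (0.75, q = 0.0103) while that at 14 days did not (0.72, q = 0.0885). TGFBR2, the ligand-binding type II receptor, measured 671, 437 and 556 CPM in the control, 525, 610 and 786 CPM at TL-3h, 609, 498 and 379 CPM at TL-3d, and 501, 579 and 449 CPM at TL-14d. All 4 groups overlapped, and its log2 fold changes of 0.21 (SE 0.23, q = 0.507), -0.16 (SE 0.23, q = 0.646) and -0.12 (SE 0.23, q = 0.878) did not pass, nor did the last without TL-14d replicate 1 (-0.11, q = 0.844).

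SKIL, which encodes the SMAD corepressor SnoN, rose in a narrow range at 3 hours. It measured 20.8, 23.4 and 21.1 CPM in the control, 85.4, 88.5 and 78.3 CPM at TL-3h, 40.1, 48.9 and 41.1 CPM at TL-3d, and 20.5, 75.0 and 57.2 CPM at TL-14d. The control, TL-3d and TL-3h groups were separated with no overlap. The rise at 3 hours was 3.86-fold (log2 fold change 1.95, SE 0.36, q = 0.00177) and passed in all 19 alternative settings. At 3 days the value was 0.99 (SE 0.35, q = 0.0751), at 14 days 1.23 (SE 0.36, q = 0.346), and between TL-3d and TL-3h -0.96 (SE 0.35, q = 0.0560). Without TL-14d replicate 1 the values at 3 days (q = 0.00246) and 14 days (1.60, SE 0.14, q = 0.00207) passed.

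SMAD7, which blocks and degrades the activated type I receptor, was also higher at 3 hours. The control libraries held 5.89, 9.0 and 4.72 CPM, TL-3h 13.6, 27 and 30.7 CPM, TL-3d 13.1, 23.6 and 22.2 CPM, and TL-14d 5.45, 42.2 and 17.4 CPM. All TL-3h and TL-3d libraries exceeded the controls. The change was 3.64-fold at 3 hours (log2 fold change 1.86, SE 0.63, q = 0.0337), and 1.59 (SE 0.62, q = 0.0980) and 1.73 (SE 0.63, q = 0.412) at 3 and 14 days did not pass. The call at 3 hours was lost with library-size scaling and when control replicate 1, 2 or 3 or TL-3h replicate 2 or 3 was left out (highest q = 0.104). Without TL-14d replicate 1 SMAD7 passed at 14 days (2.19, SE 0.48, q = 0.0383).

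TGFBI, a secreted adhesion protein of the matrix named for its induction by TGF-β, moved the other way. Its level was 2538, 1728 and 1708 CPM in the control, 634, 597 and 510 CPM at TL-3h, 1496, 1782 and 2119 CPM at TL-3d, and 2708, 756 and 751 CPM at TL-14d. Every TL-3h library lay below every control and TL-3d library, and TL-14d replicates 2 and 3 were also below the control. The fall at 3 hours was 3.43-fold (log2 fold change -1.78, SE 0.46, q = 0.0103) and passed in all 19 alternative settings. At 3 days TGFBI was near the control (-0.15, SE 0.45, q = 0.840), and it was 3.10-fold higher than at 3 hours (1.63, SE 0.46, q = 0.0191), the single gene of the 10 to pass between these times (37.3% of all genes did). That call was lost without TL-3h replicate 2 or 3 (highest q = 0.0620). At 14 days the change was -0.50 (SE 0.45, q = 0.721), and without TL-14d replicate 1 it was -1.40 (SE 0.24, q = 0.0168). TGFBI lies on chromosome 3 from 18446598 to 18553967 (OryCun2.0) and overlaps LECT2 on the opposite strand, and whether the counting used strand is not given in the sources used here.

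**Figure D3:**
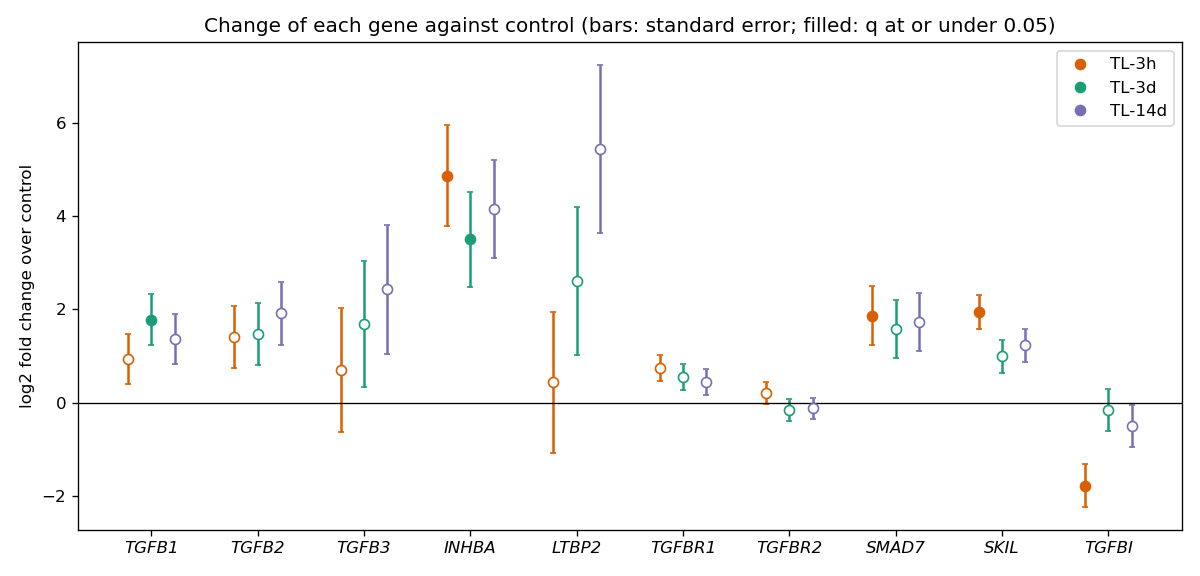
Log2 fold change over control of the 10 genes at TL-3h, TL-3d and TL-14d, with the standard error as bars and filled points where q was at or under 0.05. INHBA, SMAD7 and SKIL are filled above 0 and TGFBI below 0 at TL-3h, and only TGFB1 and INHBA are filled at TL-3d.

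Without TL-14d replicate 1, 6 of the 10 genes passed at 14 days, with TGFB1, TGFB2, INHBA, SMAD7 and SKIL higher and TGFBI lower, against 4.74% of all genes (3.51% higher and 1.22% lower). As these genes helped to single that library out, no more is read from this count. The counts at the earlier times were then 6 at 3 hours (48.1% of all genes) and 5 at 3 days (25%). TGFB1 was then 3.44-fold higher (log2 fold change 1.78, SE 0.41, q = 0.0441). With all libraries the groups of all 10 genes overlapped the control at 14 days (11.1% of all genes did not). Between TL-14d and TL-3d none of the 10 passed in edgeR (2.24% of all genes did), DESeq2 (12.5% of genes with an adjusted p-value) or limma-trend (3.22%), nor at an unadjusted p under 0.05 in edgeR (22.6%). At 3 hours 6 of the 10 lay wholly above the control and 1 wholly below, where 28.9% and 28.3% of all genes did, and at 3 days 6 lay wholly above, where 23.8% did.

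**Figure D4:**
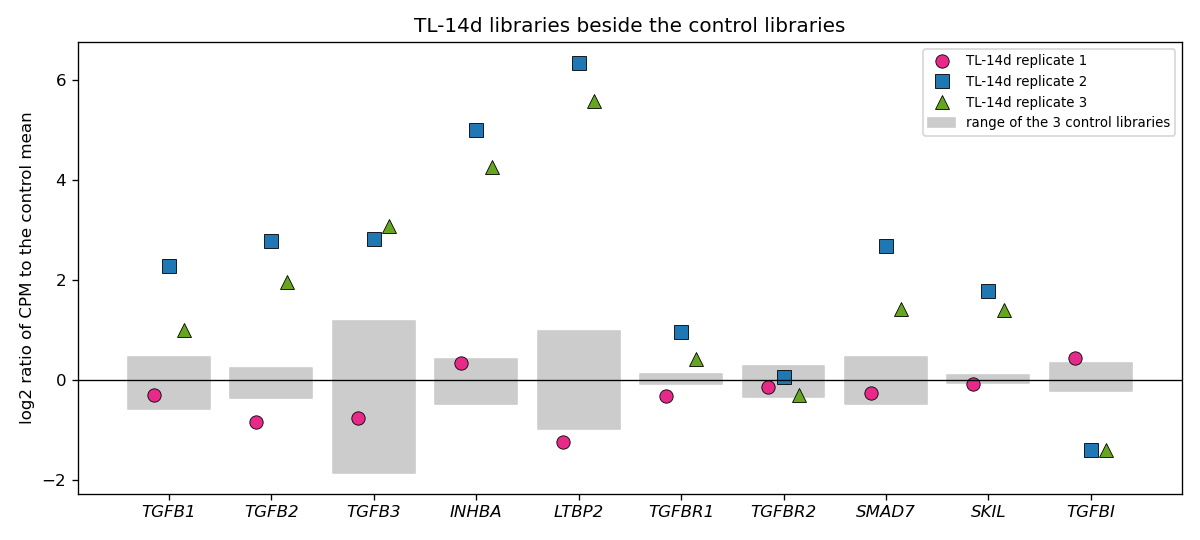
Log2 ratio of CPM in each TL-14d library to the mean of the controls for the 10 genes, with the range of the 3 control libraries in grey. Replicates 2 and 3 lie above the grey range for 8 genes and below it for TGFBI, and replicate 1 lies within it for 5 genes.

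Scaling matters most at 3 hours, where the TMM factors were 0.768 to 0.783 against 1.03 to 1.13 in the other groups. Scaling by library size alone shifted the median change over all genes at 3 hours from 0.02 to -0.47 (log2). It turned LTBP2 (-0.024) and TGFBR2 (-0.29) at that time and left the direction of the other 8 genes, and INHBA, SKIL and TGFBI still passed.

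Levels of different genes can be compared per length. In the control TGFBI led with 628 ± 161 FPKM (SD, n = 3), followed by TGFBR2 at 116 ± 24.9 and TGFBR1 at 16 ± 0.577, and neighbours in this order did not overlap down to TGFB1, although TGFB3 in control replicate 3 (18.2 FPKM) exceeded TGFBR1. TGFB1 (9.52 ± 3.10), TGFB3 (8.10 ± 8.79) and SKIL (4.89 ± 0.438) came next, with TGFB1 and TGFB3, and TGFB3 and SKIL, overlapping. TGFB2 (3.09 ± 0.561), SMAD7 (1.82 ± 0.665), LTBP2 (1.15 ± 0.919) and INHBA (1.13 ± 0.312) were lowest, each overlapping its neighbour. At TL-3h INHBA was the third of the 10, at 23.8 ± 10.6 FPKM, and overlapped TGFBR1. At TL-14d LTBP2 was the third at 51.6 ± 48.9 FPKM, but the ranks from TGFBR2 down all overlapped.

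Several of the 10 genes have more than 1 transcript in the transcript table, which lists 16 for them, 14 of them tested. At 3 hours 3 transcripts passed, of INHBA, SKIL and TGFBI (28.3% of all transcripts did), and none did at 3 days (5.13%) or 14 days (0%). The TGFBI transcript of 2762 bases held 95.6%, 95.4% and 88.2% of that gene's counts in the control and 83.7%, 81.4% and 72.1% at TL-3h. Its level fell from 2365, 1609 and 1469 CPM to 501, 460 and 345 CPM (log2 fold change -2.06, SE 0.46, q = 0.00816). A second TGFBI transcript of 2394 bases measured 107, 77.8 and 196 CPM in the control and 96.3, 105 and 133 CPM at TL-3h (-0.19, SE 0.67, q = 0.874). The counts of transcripts of the same gene are estimates that divide shared reads, and a test of the difference between both changes was not run.

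Other genes of the pathway were taken from lists of 70 genes, of which 66 were found and 65 tested. At 3 hours 16 were higher and 12 lower (43.1%, with 45.4% over all genes), with a median log2 fold change of 0.35 against 0.02 over all genes. With library-size scaling the split was 13 higher and 20 lower, beside 12.7% higher and 38.2% lower over all genes. At 3 days 13 were higher and 6 lower (29.2% against 17.6%). That count of 19 fell to 3 without control replicate 1, control replicate 2 or TL-3d replicate 2, when 3.25%, 2.46% and 2.37% of all genes passed. At 14 days none passed in edgeR (0%), with 18 of 65 at an unadjusted p under 0.05 (10.4% of all genes) and 10 in DESeq2 (2.49% of genes with an adjusted p-value). Without TL-14d replicate 1 there were 12 at 14 days, all higher, beside 4.74% of all genes.

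**Figure D5:**
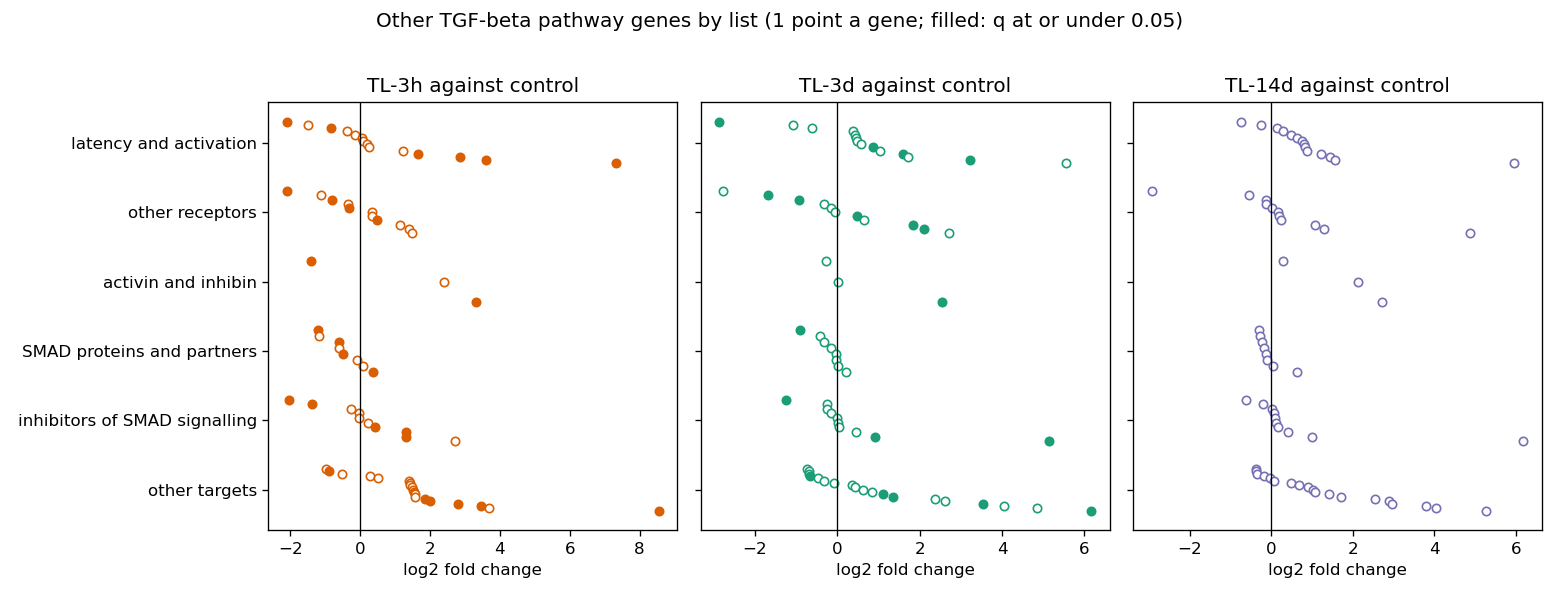
Log2 fold change over control of the other pathway genes at TL-3h, TL-3d and TL-14d, by list, with 1 point for each gene and filled points where q was at or under 0.05. Filled points lie on both sides of 0 at TL-3h, with THBS1 at 7.31 in the list of latency and activation, and no point is filled at TL-14d.

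Among genes of latency and activation 4 of 14 were higher and 2 lower at 3 hours (42.9%, with 45.4% over all genes). THBS1, thrombospondin 1, which can activate latent TGF-β, measured 3.75, 7.93 and 58.0 CPM in the control and 3893, 4181 and 2986 CPM at TL-3h (log2 fold change 7.31, SE 1.86, q = 0.00941). LRRC32, which holds latent TGF-β on the cell surface, rose by 3.62 on the log2 scale (q = 0.0139), and the integrin subunit ITGB6 by 2.87 (q = 0.00948). ITGB8 (-2.09, q = 0.00190) and ITGB5 (-0.84, q = 0.00259) were lower. At 3 days NRROS, which presents latent TGF-β on myeloid cells, was 9.33-fold higher (3.22, q = 0.0118), together with the protease FURIN (1.59, q = 0.00851) and ITGB5 (0.88, q = 0.0137). LTBP4, listed under a locus name, was lower (-2.86, q = 0.0217), from 84.6, 87.9 and 172 CPM in the control to 10.5, 13 and 24.1 CPM.

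Of the other receptors 1 of 11 was higher and 3 lower at 3 hours (36.4%, with 45.4% over all genes). ACVR2B, an activin type II receptor, fell from 8.28, 6.90 and 4.87 CPM to 1.69, 1.62 and 1.43 CPM (-2.08, q = 0.000128), ACVR2A by 0.80 on the log2 scale (q = 0.0312) and the receptor-associated TGFBRAP1 by 0.32 (q = 0.0471). FKBP1A, which binds the type I receptor, was higher (0.49, q = 0.00848). At 3 days 3 were higher and 2 lower (45.5%, with 17.6% over all genes). ACVRL1 (2.10, q = 0.0405) and ENG (1.84, q = 0.0421), receptors of endothelial cells, and FKBP1A (0.49, q = 0.0278) were higher, and ACVR1C (-1.68, q = 0.0374) and ACVR2A (-0.92, q = 0.0408) lower. Summed endothelial markers (7 of 7 genes, none at 0) were 66.6 to 297 CPM in the control, 624 to 1237 CPM at TL-3h, 311 to 571 CPM at TL-3d and 94.9 to 308 CPM at TL-14d. Of these markers 2 of 7 passed at 3 hours, both higher, and 0 at 3 days, and their part was not tested. The activin subunit INHBB rose at 3 hours (3.31, q = 0.00573) and 3 days (2.56, q = 0.0421), and INHA, the inhibin alpha subunit, fell at 3 hours (-1.39, q = 0.00668).

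Among SMAD proteins and their partners 1 of 8 tested was higher and 3 lower at 3 hours (50%, with 45.4% over all genes). SMAD4, the common partner, was 1.30-fold higher at 3 hours (0.38, q = 0.0219), and ZFYVE9, which anchors SMAD2 and SMAD3 at the receptor (-1.22, q = 0.00183), TRIM33 (-0.62, q = 0.0133) and CREBBP (-0.49, q = 0.00448) were lower. ZFYVE9 was the single gene of this list past the threshold at 3 days (-0.90, q = 0.0269). Among 10 inhibitors of SMAD signalling, TGIF1 (1.30, q = 8.89e-05), STRAP (1.30, q = 0.000177) and SMURF2 (0.43, q = 0.0401) were higher at 3 hours and LDLRAD4 (-2.03, q = 0.0258) and NEDD4L (-1.37, q = 0.00870) lower. That was 50% of this list, with 45.4% over all genes. At 3 days PMEPA1, a feedback inhibitor, was higher (5.14, SE 1.37, q = 0.0320), from 0.190, 0.375 and 1.05 CPM in the control to 13.2, 24.5 and 19.7 CPM, together with SMURF1 (0.92, q = 0.0497), and NEDD4L was lower (-1.24, q = 0.0358).

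Among other known targets of the pathway, CDKN1A, the cell cycle inhibitor p21, was 11-fold higher at 3 hours (3.45, q = 0.00145) and 11.6-fold at 3 days (3.53, q = 0.0114). SNAI2 rose at 3 hours (2.81, q = 0.000112) and KLF10 at 3 days (1.35, q = 0.0179), and TSC22D1 was lower at both (-0.89, q = 0.00133, and -0.66, q = 0.0225). Over the list of 19, 6 were higher and 1 lower at 3 hours (36.8%, with 45.4% over all genes). At 3 days 4 of them were higher and 1 lower (26.3%, with 17.6% over all genes). At 14 days the gene with the lowest p of each list was ITGB5 (0.87), BAMBI (4.87), INHBB (2.71), CREBBP (-0.28), PMEPA1 (6.19) and CDKN1A (2.54), none past the threshold (q = 0.346 to 0.431). These values were, without TL-14d replicate 1, 0.95 (q = 0.0241) for ITGB5, 5.44 (q = 0.00207) for BAMBI, 3.16 (q = 0.0324) for INHBB, -0.33 (q = 0.145) for CREBBP, 6.77 (q = 0.00316) for PMEPA1 and 3.00 (q = 0.00868) for CDKN1A.

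For the 3 genes with the widest range of group means, the genes with the most alike pattern over the 12 libraries were listed by the root mean square difference of centred log2 CPM. For INHBA these were VASH2 (0.73), RRAD (0.83) and NES (0.84), beside a median of 2.18 over 11758 genes. For LTBP2 they were COL25A1 (0.86), CADPS (0.89) and ADAMTS17 (0.97), beside a median of 2.68. For TGFB3 they were DACT1 (0.66), SRD5A2 (0.71) and LOXL2 (0.77), beside a median of 2.03. These values are a description only.

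Neutrophil markers were among those with sums above every control library at 3 hours. Their sum (8 of 10 genes found, MPO at 0 in 5 libraries) was 3.82 to 82.1 CPM in the control, 1041 to 2769 CPM at TL-3h, 253 to 893 CPM at TL-3d and 3.50, 2077 and 197 CPM at TL-14d, and 7 of 7 tested were higher at 3 hours. Platelet markers (5 of 6 found, with GP9 and GP1BA at 0 in most libraries) summed to 12.3 to 25.2 CPM in the control, 61.2 to 121 CPM at TL-3h, 70.8 to 108 CPM at TL-3d and 13.9, 603 and 78.6 CPM at TL-14d. Skeletal muscle markers were 1.71, 243 and 11.3 CPM in the control, 8.85 to 12.2 CPM at TL-3h and 1.78 to 3.32 CPM at TL-14d, so control replicate 2 was also high. Sums over all libraries were 263 to 714 CPM for pericyte and smooth muscle markers, 285 to 2469.9 CPM for goblet cell markers and 7.21 to 33.0 CPM for T cell markers. The part of these cells in the changes of INHBA, SMAD7, SKIL and TGFBI was not tested.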

How the data were processed

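Conjunctival RNA of 12 libraries was prepared with a stranded mRNA kit and sequenced as 150 bp paired-end reads, which were mapped with STAR 2.6.0c to OryCun2.0. The authors deposited estimated counts and FPKM per gene and per transcript from the GeneData Profiler Genome; 23.4% of the gene counts were fractions and were rounded. The counting settings are not given in the sources used here. Genes were kept by filterByExpr (minimum count 10, total 15), scaled by TMM and tested with edgeR 4.0.16 (R 4.3.3) in 1 fit of all 12 libraries, without covariates, with q over all 14835 genes (26082 transcripts). FPKM were used as deposited, without TMM scaling, to compare genes per length and for the isoform sums and shares. SE is the log2 fold change divided by the root of F.

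The genes, lists and comparisons were chosen with earlier results of these data known. Of each pathway list, up to 3 genes with the largest rise and 3 with the largest fall past the threshold were named, otherwise the gene with the lowest p. Deviations from the group mean correlated over 0.1 in 8 of 18 same-numbered pairs of libraries (-0.17 to 0.50) and 9 of 36 other pairs. Because not every same-numbered pair did so and the labels name no shared source, no pairing was assumed. No 2 libraries were copies of each other. On counts simulated for TL-3h against control over 14835 genes, 125 of 200 changed genes were recovered with 7 false calls. Far more genes passed in the data at 3 hours (45.4%) than were changed in that simulation, so its rates need not hold for the data. Alternatives were DESeq2 1.42.0, limma 3.58.1, other scaling and filters, the groups compared alone, a replicate block and leaving out each library. FSTL3, SKI, JUNB and IL11 were not found by name. Of the targets that this rule names, 1 is not reported here.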

Additional observations from a re-analysis of the deposited data

Results flagged for a closer look

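Results are listed here where the change over control differed between times, by the edgeR test of the difference itself (37.3% of all genes differed between TL-3d and TL-3h, and 2.24% between TL-14d and TL-3d). TGFBI was higher at 3 days than at 3 hours by 1.63 on the log2 scale (q = 0.0191). The call was lost without TL-3h replicate 2 or 3 (highest q = 0.0620).

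ITGB5 lay below every control library at 3 hours (27.9, 33.3 and 24.8 CPM against 47.8, 48.3 and 57.9 CPM) and above them at 3 days (75.9, 109 and 97.6 CPM) and 14 days (83.1, 98.0 and 99.8 CPM). Its difference between TL-3d and TL-3h was 1.72 (q = 7.55e-05). Its TL-14d replicate 1 lay with the other TL-14d libraries.

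Between TL-3d and TL-3h the other named genes that were higher at the later time were ITGB8 by 1.49 (q = 0.0130), NRROS by 1.99 (q = 0.0172), ACVR2B by 1.76 (q = 0.000375), INHA by 1.13 (q = 0.0227) and LDLRAD4 by 2.02 (q = 0.0315). The named genes lower at the later time were LTBP4, listed as LOC100351642 (-2.92, q = 0.00706), SMAD4 (-0.41, q = 0.0203), TGIF1 (-1.29, q = 0.000110), STRAP (-0.85, q = 0.00208) and SNAI2 (-2.38, q = 0.000299). Between TL-14d and TL-3d FURIN was lower (-1.09, q = 0.0393) and TSC22D1 higher (0.74, q = 0.0456).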

How the results depend on the processing

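At 3 hours INHBA, SKIL and TGFBI passed in every one of the 19 alternatives. The number of the 10 genes past the threshold (4 at 3 hours, 2 at 3 days, 0 at 14 days, 1 between TL-3d and TL-3h, 4 over all times) ranged, when each library was left out, over 3 to 6, 0 to 5, 0 to 6, 0 to 2 and 1 to 8, while the share of all genes past it ranged over 34.9% to 48.1%, 2.37% to 25%, 0% to 4.74%, 26.1% to 41.2% and 41.2% to 56.5%, and the highest counts came without TL-14d replicate 1 (between TL-3d and TL-3h, also without TL-14d replicate 2). Other pathway genes (28, 19 and 0) ranged over 23 to 33, 3 to 25 and 0 to 12, and transcripts (3, 0 and 0) over 3 to 6, 0 to 4 and 0 to 4. With DESeq2 5 of the 10 genes passed at 3 hours (51.1% of genes with an adjusted p-value), 4 at 3 days (30.3%), 2 at 14 days (2.49%) and 2 between TL-3d and TL-3h (44.9%). It called 30 and 10 other pathway genes at 3 and 14 days. At 3 days limma-trend and the fit without a filter each gave 1 (18.9% and 12.1% of all genes), and the fit of only the groups compared gave 6 (22.6%), with 3 between TL-3d and TL-3h (40.9%). That last fit also gave 6 at 3 hours (45.5%), with TGFB2 among them (q = 0.00599). The replicate block, whose numbers share no stated source, gave 5, 2 and 0 at the 3 times (46.8%, 18.3% and 0%) and 2 between TL-3d and TL-3h (39.3%).

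No difference past the threshold changed direction. Log2 fold changes that did not pass and turned were, with library-size scaling, LTBP2 (-0.024) and TGFBR2 (-0.29) at 3 hours and TGFBR1 (0.29), TGFBR2 (0.11) and SMAD7 (0.20) between TL-3d and TL-3h. With limma-trend they were TGFB3 (-0.66) between TL-3d and TL-3h and TGFB2 (-0.11) and SMAD7 (-0.26) between TL-14d and TL-3d. With the replicate block they were TGFB2 (-0.052) and TGFB3 (-0.69) between TL-3d and TL-3h and SMAD7 (-0.12) between TL-14d and TL-3d. Leaving out 1 library in turn gave log2 fold changes that crossed 0. Against control these ran from -0.26 to 1.33 for LTBP2 and -0.018 to 0.36 for TGFBR2 at 3 hours, -0.24 to 3.15 for TGFB3 and -0.28 to 0.066 for TGFBI at 3 days, and -0.27 to 0.037 for TGFBR2 at 14 days. Between TL-3d and TL-3h they ran from -0.28 to 0.27 for TGFB2, -0.95 to 1.55 for TGFB3 and -0.13 to 2.85 for LTBP2. Between TL-14d and TL-3d they ran from -1.30 to 0.00087 for TGFB1, -0.33 to 0.95 for TGFB2, -0.13 to 1.20 for INHBA, -0.46 to 0.16 for TGFBR1, -0.12 to 0.22 for TGFBR2, -0.78 to 0.60 for SMAD7 and -0.16 to 0.61 for SKIL. The cause was not tested. Depth limited none of the 10 genes: the lowest level, 2.42 CPM, lies above the level of 3 counts (0.0712 to 0.124 CPM).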
